A study of Mus musculus with 6 samples.

Results

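Small nucleolar RNAs (snoRNAs) guide the chemical modification and cleavage of ribosomal RNA in the nucleolus, and in mammals most of them are cut out of the introns of host genes. A group of hosts makes no protein, and their spliced exons remain as a long noncoding RNA once the introns are removed. The 7 host genes described here are Gas5, Snhg1, Snhg3, Snhg5, Snhg6, Snhg8 and Snhg12. They were taken by name, through the mouse GENCODE annotation, from a table of 52550 gene IDs, and all 7 were among the 11057 genes that averaged 1 FPKM or more over the libraries. The list was chosen by the FPKM values of these same libraries, read beforehand in the contrasts described below, so the levels and changes of the 7 genes are given as a description and support nothing by themselves.

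The libraries came from granule cells (GCs), small glutamatergic neurons that make up most of the cerebellum, of wildtype C57BL/6 mice at postnatal day 8. Lysate of dissociated cells was incubated with beads carrying an antibody against YTHDF1 or YTHDF2, cytoplasmic proteins that bind N6-methyladenosine (m6A) in RNA, and the recovered RNA was sequenced (RIP-seq) beside RNA of the lysate itself, called input. The experiment asked which RNAs each of the 2 readers recognizes. There were 2 input, 2 YTHDF1 RIP and 2 YTHDF2 RIP libraries, all 6 of the same genotype and age. None of the 6 was a control with an irrelevant antibody, so unspecific recovery was not measured. The labels do not say whether the 2 replicates of a group were separate animals or cultures, so a spread or p-value covers the difference between these libraries, which may be technical.

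In background terms, the spliced RNAs of snoRNA hosts are exported and loaded onto ribosomes in spite of having only short reading frames, and many are then degraded by nonsense-mediated decay, the pathway that removes transcripts on which a ribosome stops early. Gas5 is the best known case in mouse cells, where its RNA builds up when translation or growth is arrested. Many of these genes start with a run of pyrimidines at the first transcribed base, as do the genes of ribosomal proteins. YTHDF2 is known for bringing m6A-carrying RNAs to the deadenylation machinery, and YTHDF1 for a part in their translation.

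The start sites are shown because such a pyrimidine run would lie there. RefSeq held 7 start windows for 6 of the 7 genes on GRCm38.p6, and Snhg6 was not among them. Each window below covers 30 bases, 10 before the annotated start and 20 from it, and capitals mark CTTT on the transcribed strand.
Gas5, chr1:161034591-161034620, plus strand: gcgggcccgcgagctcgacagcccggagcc
Gas5, chr1:161035156-161035185, plus strand: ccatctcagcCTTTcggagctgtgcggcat
Snhg12, chr4:132308668-132308697, plus strand: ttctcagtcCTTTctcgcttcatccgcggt
Snhg8, chr3:123508317-123508346, minus strand: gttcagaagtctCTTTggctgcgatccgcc
Snhg5, chr9:88522878-88522907, minus strand: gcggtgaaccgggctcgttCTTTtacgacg
Snhg1, chr19:8723477-8723506, plus strand: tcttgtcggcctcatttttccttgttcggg
Snhg3, chr4:132353667-132353696, minus strand: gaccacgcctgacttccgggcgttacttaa
CTTT stood in 4 of the 7 windows, and in 11.6% of 32851 RefSeq start windows of the same length. On either strand it stood in the same 4 windows, against 21.8% of all windows. CTTT was counted anywhere in a window, so this is not a count of pyrimidine runs at the first transcribed base. The motif was picked after these windows had been read, so the count is a description.

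m6A is placed within short motifs with GGAC at their core, which were counted in the longest GENCODE transcript of each gene that is not annotated as a retained intron. GGAC was present in 7 of the 7 transcripts, against 97% of 11041 tested genes with such a transcript, and against 85.5% of the 2242 whose transcript was no longer than 1538 nt, the longest of the 7. The longer motif GGACT was present in 2 of the 7, against 53.7% of those 2242. That set was capped but not matched in length, and the 7 transcripts had a median of 709 nt. The part of length in this difference was not tested. The 2 sites are shown with the motif in capitals.
Gas5, plus strand of chromosome 1, with GGACT from base 351 of the transcript: aggcttacgaGGACTcgtcaggaag
Snhg6, minus strand of chromosome 1, with GGACT from base 592 of the transcript: caagctgccaGGACTacatttgcca
Per 1000 nt, Gas5 held 7.52 GGAC and Snhg12 1.3, and the median of the 7 was 1.89 against 4.03 over all tested genes. A match of letters is not a measured m6A site.

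The 7 transcripts were present in the input at modest levels, given as FPKM, which scales the fragments of a gene by transcript length and by the mapped fragments in the library. Gas5 (ENSMUSG00000053332, chr1:161034422-161038539 of GRCm38, plus strand), which also carries a stretch known to bind the glucocorticoid receptor, had 8.83 and 6.82 FPKM in the input libraries, 6.00 and 6.70 with anti-YTHDF1, and 2.197 and 3.82 with anti-YTHDF2. Both YTHDF2 RIP libraries lay below the other 4, and the YTHDF1 RIP libraries lay just under both inputs. The means were 7.83 ± 1.42, 6.35 ± 0.490 and 3.01 ± 1.15 FPKM (SD, n = 2).

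Snhg5 (ENSMUSG00000097195, chr9:88521050-88522929, minus strand), the host of the U50 snoRNAs, had 10.05 and 6.89 FPKM in the input, 8.94 and 11.2 with anti-YTHDF1, and 2.87 and 3.58 with anti-YTHDF2. The YTHDF1 RIP and input libraries overlapped, and the YTHDF2 RIP libraries stood clearly apart below them. Snhg8 (ENSMUSG00000104960, chr3:123507552-123508404, minus strand), the host of Snora24, had 6.83 and 14.0 FPKM in the input, 8.11 and 10.7 with anti-YTHDF1, and 4.36 and 5.03 with anti-YTHDF2. Its 2 inputs differed more from each other than the YTHDF1 RIP libraries did, and again only the YTHDF2 RIP pair lay below the rest.

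Snhg1 (ENSMUSG00000108414, chr19:8723475-8726443, plus strand), the first host found to have exons that code for no protein while its introns hold the functional RNAs, had the closest values of the 7 across the input and YTHDF1 RIP libraries. It had 2.48 and 2.39 FPKM in the input, 2.30 and 2.42 with anti-YTHDF1, and 0.894 and 1.24 with anti-YTHDF2. The 4 input and YTHDF1 RIP libraries were nearly equal. Snhg12 (ENSMUSG00000086290, chr4:132308623-132311024, plus strand), host of several H/ACA snoRNAs, had 3.15 and 2.15 FPKM in the input, 3.48 and 3.22 with anti-YTHDF1, and 0.901 and 1.38 with anti-YTHDF2. It was the one gene of the 7 whose YTHDF1 RIP libraries both exceeded both inputs, as they did for 33.8% of all tested genes.

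In the remaining 2 genes the YTHDF2 RIP libraries stood less clearly apart from the other libraries. Snhg6 (ENSMUSG00000098234, chr1:9941959-9944118, minus strand), the host of Snord87, had 4.10 and 1.93 FPKM in the input, 0.900 and 1.62 with anti-YTHDF1, and 0.368 and 1.08 with anti-YTHDF2. Both kinds of RIP library lay below both inputs, and the YTHDF1 and YTHDF2 RIP libraries overlapped each other. Snhg3 (ENSMUSG00000085241, chr4:132348014-132353686, minus strand), the host of the U17 snoRNAs, had 1.58 and 1.30 FPKM in the input, 1.39 and 2.45 with anti-YTHDF1, and 1.07 and 1.12 with anti-YTHDF2. Its YTHDF2 RIP libraries were the lowest 2 of the 6 by a small margin.

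**Figure D1:**
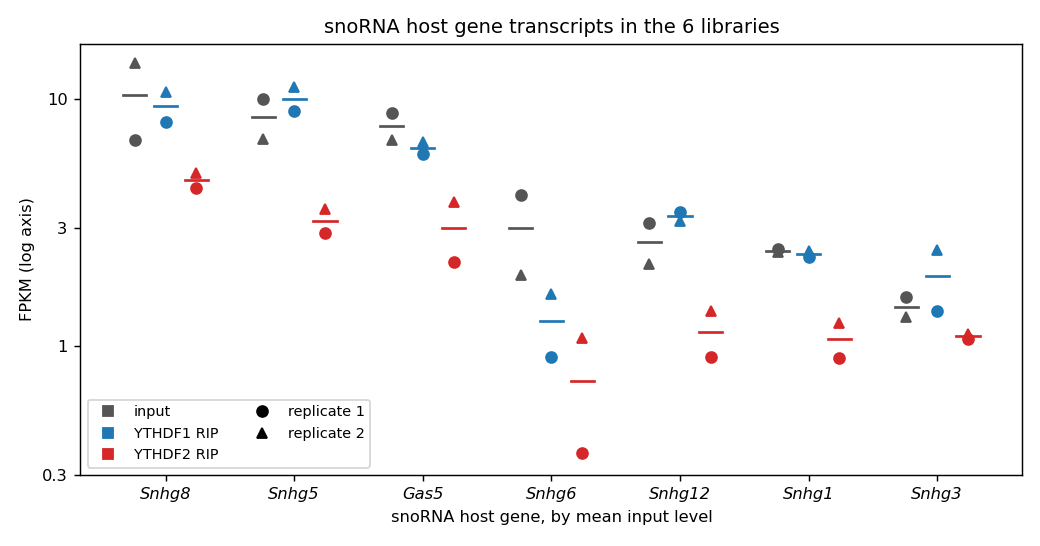
FPKM (log axis) of the 7 snoRNA host genes in each of the 6 libraries, with circles for replicate 1, triangles for replicate 2 and a short bar for the mean of the 2 libraries of a group. Both YTHDF2 RIP libraries lie below both inputs for every gene shown, while YTHDF1 RIP and input overlap for 4 of the 7.

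Snhg3 is the least certain of the 7. Its span lies almost wholly within that of Rcc1, a gene of the same strand for the exchange factor of the GTPase Ran, and 135 of its 986 exonic bases are also Rcc1 exon. On the opposite strand the lincRNA Gm17300 covers 705 of them, and the strand setting of the counting was not given in the sources used here. Rcc1 had 2.25 and 2.91 FPKM in the input, 4.06 and 4.84 with anti-YTHDF1, and 3.93 and 2.79 with anti-YTHDF2, and its part in the Snhg3 values was not tested. The antisense gene Mcmdc2 shares 127 of 1146 exonic bases with Snhg6 but reached at most 0.126 FPKM in any library, and Zbtb37 overlaps Gas5 on the opposite strand with 0 shared exonic bases.

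The order of the genes by level was alike in the 3 groups at the top and shifted at the bottom. In the input Snhg8, Snhg5 and Gas5 came first, with overlapping libraries, and then, after a gap, Snhg6, Snhg12 and Snhg1, which overlapped in turn, and Snhg3 was lowest without overlapping Snhg1. In the YTHDF1 RIP the order was Snhg5, Snhg8, Gas5, Snhg12, Snhg1, Snhg3 and Snhg6, where Snhg5 and Snhg8 overlapped, as did Snhg1 with Snhg3 and Snhg3 with Snhg6. In the YTHDF2 RIP Snhg8 was highest with no overlap, Snhg5 and Gas5 overlapped, and Snhg12, Snhg3, Snhg1 and Snhg6 followed with each overlapping the next. Snhg6 thus held the fourth place in the input and the last place in either RIP.

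Added up, the 7 genes reached 37.0 and 35.5 FPKM in the input libraries, 31.1 and 38.3 with anti-YTHDF1, and 12.7 and 17.2 with anti-YTHDF2. The YTHDF1 RIP libraries lay on either side of the inputs, and the YTHDF2 RIP libraries held under 0.5 times the sum of either input. FPKM is a share of each library, so a lower value cannot tell fewer molecules recovered from more of other RNAs, and in a bulk lysate fewer cells of a type and less RNA per cell cannot be told apart.

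For the YTHDF2 RIP against input, the fitted log2 changes, on the log2(FPKM + 1) scale, were -1.20 for Snhg6, -1.16 for Gas5, -1.15 for Snhg5, -0.93 for Snhg8, -0.76 for Snhg12, -0.74 for Snhg1 and -0.22 for Snhg3. On the FPKM scale the ratio of the input mean to the YTHDF2 RIP mean ran from 1.32 for Snhg3 to 4.17 for Snhg6, and lay between 2.22 and 2.63 for the other 5. Both YTHDF2 RIP libraries were below both inputs for 7 of the 7 genes, and for 24.9% of all tested genes. The count of the 7 past limma's threshold, an adjusted p under 0.05 with Benjamini-Hochberg adjustment over all tested genes, was 0, with 5 at an unadjusted p under 0.05. Of all 11057 tested genes, 4148 had an unadjusted p under 0.05. The count of the 7 past the threshold was 3 with median-of-ratios scaling between libraries and 2 with scaling to nuclear coding genes. Over all tested genes 6.66% passed with a lower and 11.9% with a higher value in this contrast without such scaling. The shares under the 2 scalings are not given here, so the counts of 3 and 2 have no background beside them. Nothing is read from these counts, because the genes were chosen with this contrast known. The signs held under each alternative scaling between libraries, apart from Snhg3, whose change was 0.17 when every library was scaled to the same total.

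For the YTHDF1 RIP against input the 7 genes were spread around 0. The log2 changes were 0.27 for Snhg12, 0.24 for Snhg3 and Snhg5, -0.03 for Snhg1, -0.07 for Snhg8, -0.26 for Gas5 and -0.79 for Snhg6. Their standard errors lay between 0.29 and 0.43, so for 6 of the 7 the change was no larger than its error, and Snhg6 was about 2 errors below 0. The sign of these small values depends on the scaling, since with every library scaled to the same total only Snhg6 stayed below 0. The libraries of the 2 groups overlapped for 4 genes, both YTHDF1 RIP libraries were below both inputs for 2, and they were above for 1. Over all tested genes 30.2% had both YTHDF1 RIP libraries below both inputs, and 33.8% had both above. In this contrast limma called 0 of the 7, with 0 at an unadjusted p under 0.05, against 0.624% of all tested genes called higher and 1.94% called lower. Of all 11057 tested genes, 2953 had an unadjusted p under 0.05.

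The direct contrast of the 2 antibodies does not use the input libraries in its difference. All 7 genes were lower in the YTHDF2 RIP, with log2 changes of -1.39 for Snhg5, -1.03 for Snhg12, -0.90 for Gas5, -0.86 for Snhg8, -0.71 for Snhg1, -0.46 for Snhg3 and -0.40 for Snhg6, and the signs were the same under every scaling tried. The ratio of the YTHDF1 RIP mean to the YTHDF2 RIP mean was 3.13 for Snhg5, 2.93 for Snhg12 and between 1.74 and 2.22 for the others. For 6 of the 7 both YTHDF2 RIP libraries were below both YTHDF1 RIP libraries, the exception being Snhg6, and the share over all tested genes was 8.09%. Limma called 0 of the 7, with 4 at an unadjusted p under 0.05, against 477 of all 11057 tested genes. Nothing is read from these counts, because the genes were chosen with this contrast known. In this contrast 0.00904% of all tested genes, a single gene, was called higher and 0% lower.

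**Figure D2:**
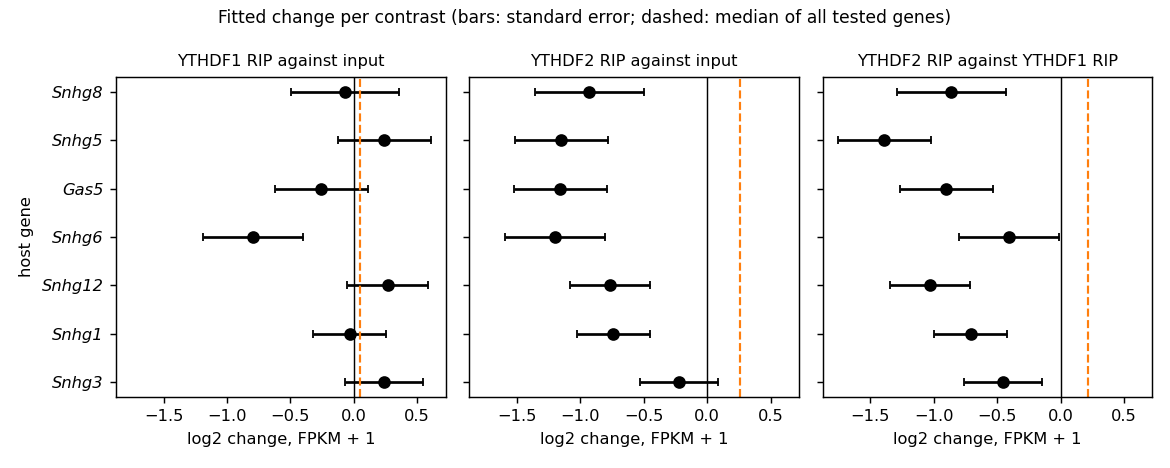
Fitted log2 change of each of the 7 genes on the log2(FPKM + 1) scale (points) with its standard error (bars), in the 3 contrasts, beside the median of all tested genes (dashed line). Changes lie on both sides of 0 for the YTHDF1 RIP, with Snhg6 lowest at -0.79, and below the dashed line for all 7 genes in both contrasts of the YTHDF2 RIP.

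As a group, the median log2 change of the 7 was -0.03 for the YTHDF1 RIP against input, -0.93 for the YTHDF2 RIP against input and -0.86 for the YTHDF2 RIP against the YTHDF1 RIP. The median of all tested genes was 0.05, 0.26 and 0.22 in the same order. The first 2 contrasts share the input libraries, and the values are set side by side with no test of their difference. By the ratio of group means, 6 of the 7 were under 0.5 of input in the YTHDF2 RIP and 1 in the YTHDF1 RIP, and 0 were over the ratio of 2 at which the study spoke of enrichment. Over all tested genes 16.9% and 19.1% were under 0.5 in the YTHDF2 and YTHDF1 RIP, and 34.4% and 23.3% were over 2.

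Other properties of the libraries differed as well, some between the groups and some between the replicates of a RIP. Mitochondrially encoded RNA made up 18.4% and 18% of the summed FPKM in the inputs, 0.607% and 3.68% with anti-YTHDF1 and 0.0892% and 0.886% with anti-YTHDF2. In the inputs the 10 most abundant genes held 82.8% and 82.6% of the sum. Their share was 85.3% and 79.4% with anti-YTHDF1 and 86.5% and 74.4% with anti-YTHDF2. In the same order 9857 and 10189, then 9503 and 10910, then 9688 and 12627 genes reached 1 FPKM. Replicate 2 of either RIP thus had the lower share and the more genes. Of 9 granule cell markers 6 had a mean of at least 1 FPKM, led by Neurod1 and Zic1, while Etv1, Cbln3 and Gabra6 did not, and their sum ran from 303.5 to 420.8 FPKM in the input, 280.5 to 422.0 in the YTHDF1 RIP and 569.5 to 684.7 in the YTHDF2 RIP. The 5 astrocyte and Bergmann glia markers, all at a mean of at least 1 FPKM, summed to 267.3 and 231.6 in the input, 113 and 92.4 with anti-YTHDF1, and 99.9 and 139 with anti-YTHDF2. In that list Fabp7, Aqp4 and Slc1a3 carried the difference, while Gfap and Aldh1l1 had a higher mean over all libraries than in the input. The 5 GABAergic interneuron markers summed to 10.5 and 10.1 FPKM in the input, 15.3 and 19.5 with anti-YTHDF1, and 21.8 and 34.4 with anti-YTHDF2. Their sum thus lay above both inputs with either antibody. The 4 endothelial markers gave 8.45 and 15.8 FPKM in the input, 35.2 and 9.74 with anti-YTHDF1, and 39.1 and 22.9 with anti-YTHDF2. With anti-YTHDF1 only replicate 1 exceeded both inputs. Cldn5 was the highest endothelial marker, with a mean of 16.5 FPKM over all libraries and 7.61 in the input. Kdr was also higher over all libraries than in the input, while Pecam1 and Flt1 were lower. No marker list had a sum of 0 in any library. The part of these differences in the host gene values was not tested, beyond the alternative scalings named above.

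The snoRNAs inside the 7 hosts had values that in part ran against those of their hosts. GENCODE places 29 snoRNA genes within them, from 60 to 205 nt long, 10 in Gas5, 8 in Snhg1, 5 in Snhg12, 2 each in Snhg3 and Snhg5, and 1 each in Snhg6 and Snhg8. Snord80 and Snora16a are each listed with 2 entries at almost the same place. In each pair 1 entry held nearly all of the FPKM, with means of 4.05 against 0.00054 and of 1.13 against 0.0108. Of the 29 entries, 12 had a mean of at least 1 FPKM and 11 had a mean under 0.1 FPKM. For the 12, both YTHDF1 RIP libraries were above both inputs for 7 and below them for 0, against 33.8% and 30.2% of all tested genes. Snora16a and Snora61, both in Snhg12, had input means of 0.151 and 0.963 FPKM and reached a mean of 1 FPKM only through RIP libraries. Gm22489, in Gas5, reached it only through the YTHDF1 RIP libraries. The counts for the 12 are therefore a description. The YTHDF2 RIP libraries were above both inputs for 3 and below for 3, against 41.5% and 24.9% of all tested genes, so neither count stood above the background share by more than 1 gene. They were below both YTHDF1 RIP libraries for 10 and above for 0, against 8.09% and 21.6% of all tested genes. snoRNAs are short for a library of this kind, and 27 of the 29 also lie under an exon of some annotated host transcript, 8 of them under an exon of a transcript that is not a retained intron, so reads of a host and of its snoRNAs cannot be fully told apart.

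Snord22 and Snora61 are shown because they ran against their hosts in the YTHDF2 RIP, and Gm22357 because it was low there like its host. Capitals mark the conserved boxes. In the box C/D class, which guides ribose methylation, these are TGATGA (box C) and CTGA (box D). In the H/ACA class, which guides pseudouridylation, ACA is marked. TGATGA was not found in Snord22, so only its box D is marked.
Snord22 (in Snhg1, chr19:8725866-8725991, plus strand): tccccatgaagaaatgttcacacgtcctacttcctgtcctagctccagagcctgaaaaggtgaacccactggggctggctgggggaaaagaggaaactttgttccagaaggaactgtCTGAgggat
Snora61 (in Snhg12, chr4:132310240-132310369, plus strand): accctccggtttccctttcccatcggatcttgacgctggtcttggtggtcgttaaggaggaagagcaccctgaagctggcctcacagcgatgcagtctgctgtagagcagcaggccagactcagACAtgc
Gm22357 (in Gas5, chr1:161036057-161036139, plus strand): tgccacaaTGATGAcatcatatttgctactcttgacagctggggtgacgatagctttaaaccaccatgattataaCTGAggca

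Snord22, the U22 snoRNA needed for maturation of 18S ribosomal RNA in Xenopus, had 39.4 and 26.4 FPKM in the input, 106 and 301 with anti-YTHDF1, and 98.2 and 63.1 with anti-YTHDF2. All 4 RIP libraries exceeded both inputs, while its host Snhg1 was level or lower in the same libraries. Snora61 had 1.03 and 0.894 FPKM in the input, 5.05 and 6.25 with anti-YTHDF1, and 3.48 and 2.69 with anti-YTHDF2, again with all RIP libraries above both inputs, where its host Snhg12 was lower in the YTHDF2 RIP. Gm22357 had 26.6 and 30.7 FPKM in the input, 47.9 and 29.3 with anti-YTHDF1, and 7.68 and 17.9 with anti-YTHDF2. It was thus low in the YTHDF2 RIP, as was Gas5.

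By limma 2 of the 12 snoRNAs rose in the YTHDF1 RIP against input, where 0.624% of all tested genes were called higher. They were Snora61, with a log2 change of 1.75 (adjusted p = 0.0404), and Gm22489, in Gas5, with 2.94 (adjusted p = 0.0455). Gm22489 had 1.99 and 0.0842 FPKM in the input, 10.8 and 15.2 with anti-YTHDF1, and 1.44 and 0.142 with anti-YTHDF2. It passed the filter of 1 FPKM only through the YTHDF1 RIP libraries, where it was high. Snora61, with an input mean of 0.963 FPKM, passed it only through the RIP libraries, where it was high. No support is drawn from either call. Without input replicate 1, without input replicate 2 and without either YTHDF1 RIP library, 0 of the 12 passed. In the YTHDF2 RIP against input and in the direct contrast limma called 0 of 12, with 4 at an unadjusted p under 0.05 in each. Of all 11057 tested genes, 4148 and 477 had an unadjusted p under 0.05 in the same order. The other 8 of the 12 had means over all libraries between 1.13 FPKM (Snora16a, in Snhg12) and 7.58 FPKM (Snora73b, in Snhg3), among them Snora24 in Snhg8, with 5.08 FPKM, and Mir5117 in Gas5, which GENCODE lists as a snoRNA in spite of its name. Snora73a and Snora73b, both in Snhg3, are near-identical copies and uncertain one by one.

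**Figure D3:**
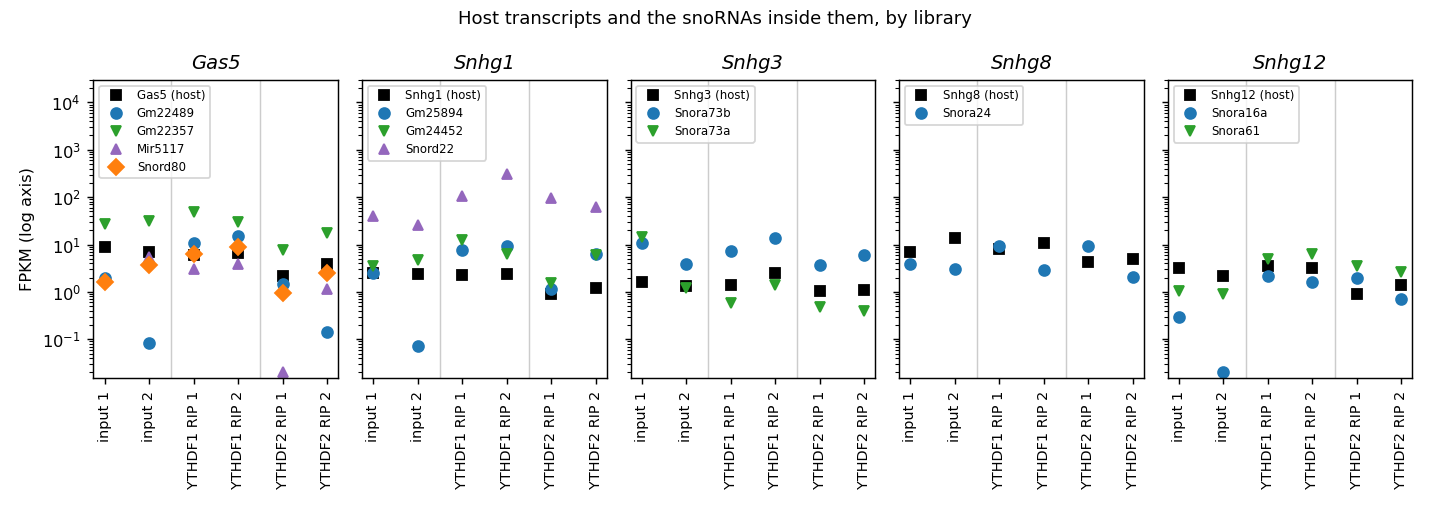
FPKM (log axis) of 5 host transcripts (black squares) and of the snoRNAs inside them that had a mean of at least 1 FPKM (coloured symbols), by library, with grey lines between the groups and values under 0.02 drawn at 0.02. Snord22 lies above both inputs in all 4 RIP libraries, up to 301 FPKM, while Snhg1 stays between 0.894 and 2.48 FPKM.

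Other noncoding snoRNA hosts gave mixed values. Of 15 listed, 12 were in the table and 5 were tested. Epb41l4aos, an antisense transcript that also hosts a snoRNA, fell in the YTHDF2 RIP with a log2 change of -1.33 (limma, adjusted p = 0.0485), from 3.09 and 2.27 FPKM in the input to 0.244 and 0.695. It had 0.646 and 2.03 FPKM in the YTHDF1 RIP. It no longer passed without either input library, without either YTHDF2 RIP library, with a pseudocount of 0.1, or when every library was scaled to the same total. The other 4 did not pass in any contrast by limma, and at an unadjusted p under 0.05 there was 1 of them in the YTHDF2 RIP against input and 0 in the other contrasts. Of all 11057 tested genes, 4148 had an unadjusted p under 0.05 in the YTHDF2 RIP against input. Zfas1, named for its position antisense to Znfx1, had 1.69 and 1.23 FPKM in the input, 1.41 and 1.32 with anti-YTHDF1 and 0.447 and 0.640 with anti-YTHDF2, so that both YTHDF2 RIP libraries lay below the other 4. Snhg11, a neuronal host that GENCODE annotates as protein-coding, had 1.58 and 1.96, then 1.33 and 2.81, then 0.540 and 2.41 FPKM in the same order, with all groups overlapping. The imprinted Rian, which carries a large C/D cluster, had 0.731 and 0.982, then 0.745 and 3.18, then 0.916 and 1.49 FPKM.

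Protein-coding snoRNA hosts were counted as ribosomal protein genes and the rest. In the YTHDF2 RIP against input 14 of 30 ribosomal protein hosts fell and 0 rose, with a median log2 change of -1.61 and both YTHDF2 RIP libraries below both inputs for 30 of 30. Of 187 other hosts annotated as protein-coding, Snhg11 among them, 13 fell and 8 rose, with a median of 0.06. Of 51 ribosomal protein genes that hold no snoRNA 19 fell and 0 rose, with a median of -1.31. Of 181 other genes annotated as lincRNA or antisense 28 rose and 5 fell, with a median of 0.76. The shares over all tested genes in this contrast were 6.66% lower and 11.9% higher past the threshold, 24.9% with both libraries below both inputs, and a median of 0.26, and differences between the lists were not tested. In the YTHDF1 RIP 3 of 30 ribosomal protein hosts fell, with a median of -0.95, and 0 of 187 others passed. Over all tested genes 1.94% were called lower and 0.624% higher in this contrast, with a median of 0.05. An unadjusted p under 0.05 was found there for 50 of all 217 hosts and for 2953 of 11057 tested genes. In the direct contrast 0 of 217 passed, with 6 at an unadjusted p under 0.05, against 477 of 11057 tested genes. Every count past the threshold in this paragraph comes from limma with adjustment over all tested genes. With input replicate 1 or input replicate 2 left out, 0 of the protein-coding hosts passed in either contrast against input. Without either YTHDF1 RIP library 0 passed in the YTHDF1 RIP, and without YTHDF2 RIP replicate 2 there were 15 in place of 35 in the YTHDF2 RIP.

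Rpl17, a protein of the large ribosomal subunit, fell most, from 246.6 and 211.9 FPKM in the input to 37.8 and 23.3 with anti-YTHDF1 and 20.2 and 18.1 with anti-YTHDF2. Its log2 change was -2.90 in the YTHDF1 RIP (limma, adjusted p = 0.0365) and -3.51 in the YTHDF2 RIP (adjusted p = 0.0144). The large-subunit genes Rpl21 and Rpl12 also fell in both, with log2 changes of -2.35 and -2.21 in the YTHDF1 RIP and of -2.97 and -2.79 in the YTHDF2 RIP. Rps12, of the small subunit, fell in the YTHDF2 RIP by 2.82 on the log2 scale (limma, adjusted p = 0.0147). These genes were named for the size of their fall, and over all 30 ribosomal protein hosts the changes in the YTHDF1 RIP ran from -2.90 to 0.83. The rising hosts were led by Gm42715, Prrc2a and Prrc2b, with log2 changes of 3.13, 2.27 and 2.03 in the YTHDF2 RIP (limma, adjusted p = 0.0202, 0.0247 and 0.0480). The most abundant hosts did not pass in any contrast. They were Eef2, the elongation factor that moves the ribosome along, with 179 and 180.2 FPKM in the input, and the ribosomal protein genes Rpl4 and Rpl23a.

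**Figure D4:**
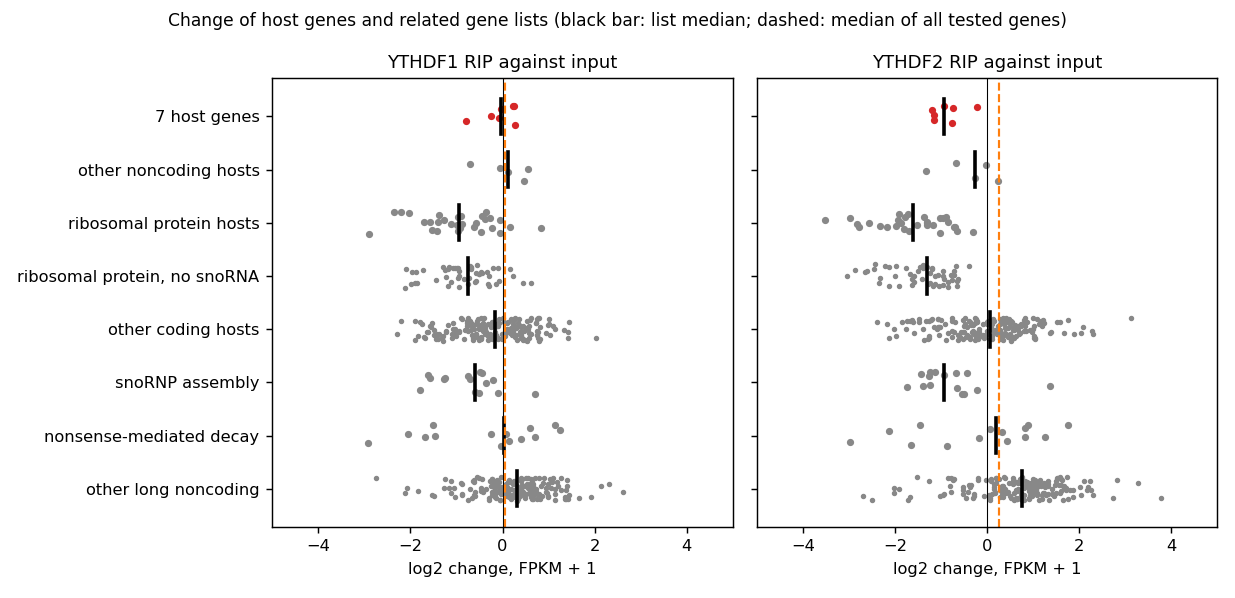
Log2 change of each tested gene (points, on the log2(FPKM + 1) scale) in the 7 host genes and 7 related lists, with the list median (black bar) and the median of all tested genes (dashed line), for the YTHDF1 RIP (left) and the YTHDF2 RIP (right) against input; 1 long noncoding gene lies beyond the axis limit of 5. The 7 host genes center near 0 on the left and at -0.93 on the right, while the medians of both ribosomal protein lists lie left of the dashed line on both sides.

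The genes outside the group with the most similar profile were found from the root mean square difference of centred log2(FPKM + 1) values over the 6 libraries. Closest to the mean of the 7 were Snf8, at 0.09, and Arf5, Exosc8, Zfas1 and Rpl22l1, each at 0.14. Snf8 encodes an ESCRT-II subunit and Exosc8 a subunit of the RNA exosome. Zfas1 is itself a noncoding snoRNA host, which the measure did not use. Closest to Snhg6, the gene with the largest difference from input, were Fam92a and Gnl3 at 0.11 and Rps15a, Pnpt1 and Krr1 at 0.14 to 0.15. Gnl3, which makes the nucleolar protein nucleostemin, had 5.77 and 3.71 FPKM in the input, 1.70 and 3.01 with anti-YTHDF1 and 0.765 and 2.12 with anti-YTHDF2. Closest to Snhg3, with the smallest difference, were Jmjd7, Fmc1, Dalrd3, Atp5g2 and Commd4 at 0.07 to 0.12. Over 6 libraries and 11057 genes such likeness is a description.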

How the data were processed

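RIP-seq libraries of P8 mouse GCs were deposited by the authors as 1 table of FPKM per gene and library, which replicates entered unpooled. The study's methods name STAR and Cufflinks on GRCm38, the submitters' processing notes name Bowtie 0.12.2 with mm8 and mm9, and no source used here says which of them made the table, or gives the strand setting or any scaling between libraries. FPKM divides by the library's total, so depletion of an abundant class raises all others. The files give no read totals. FPKM of 4780 single-exon genes piled up at steps of 0.02 to 0.0535 FPKM per fragment on 1000 nt, but only 39% to 44.7% of low values lay at most 0.1 from a whole step (chance gives 20%), so depth is unknown and no count test was run.

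Limma 3.58.1 (R 4.3.3) was fitted to log2(FPKM + 1) of 11057 genes that averaged 1 FPKM or more, with 1 mean per group, 3 residual degrees of freedom and an intensity trend in eBayes. The 3 contrasts were tested on 2 sides with Benjamini-Hochberg adjustment and a threshold of 0.05. The pseudocount understates changes of low genes. The fit was tested on simulated data. Symbols, coordinates and transcripts came from GENCODE M21 (GRCm38), which lacked 147 IDs, and start windows from RefSeq. The 7 genes, the lists and the tests were chosen with earlier results of these data known. Genes were named by a rule: the 7 hosts, other noncoding hosts past the threshold or among the 3 highest, protein-coding hosts with the 3 largest rises and falls past the threshold and the 3 highest means, snoRNP and decay genes past the threshold (up to 3 per contrast), snoRNAs inside the hosts with a mean of at least 1 FPKM, and the 5 nearest profiles. Rcc1, Gm17300, Mcmdc2 and Zbtb37 were named for their overlap. Of genes whose symbol starts as a ribosomal protein's, 18 that are S6 kinases, Rps19bp1, Rpl7l1 or processed copies were left out. Alternatives were a pseudocount of 0.1, no filter, a minimum mean of 5 FPKM, a replicate block, 3 scalings between libraries and leaving out each library. For the snoRNAs inside the hosts they were added after seeing the data.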

Additional observations from a re-analysis of the deposited data

How the results depend on the processing

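The 7 host genes were below 0 in the YTHDF2 RIP against the YTHDF1 RIP under all alternatives in which they were fitted, and in the YTHDF2 RIP against input under all but 1, the scaling of each library to the same total, where Snhg3 had 0.17. That scaling moved the median of all tested genes to 0.49, 0.79 and 0.33 in the 3 contrasts (in their order above), and the median of the 7 hosts to 0.46 and -0.39 in the YTHDF1 and YTHDF2 RIP against input. Median-of-ratios scaling gave -1.20 for the YTHDF2 RIP against input and -1.12 against the YTHDF1 RIP, with medians of all tested genes at 0.01 and -0.01. Relative to all tested genes the median of the 7 in the YTHDF2 RIP against input stayed between -1.50 and -0.96. Leaving out 1 library at a time gave -0.06 to 0.11, -1.01 to -0.80 and -0.97 to -0.61 for the 3 medians. Without 1 library at a time the change of Snhg3 in the YTHDF1 RIP, 0.24, ran from -0.030 (without YTHDF1 RIP replicate 2) to 0.50 (without YTHDF1 RIP replicate 1). The minimum mean of 5 FPKM kept only Gas5, Snhg5 and Snhg8.

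Counts past the threshold are given in the order YTHDF1 RIP, then YTHDF2 RIP, against input. Over all genes they were 284 and 2049, with 1 in the direct contrast. Without a filter all of these were 0, and so were the counts of protein-coding hosts (3 and 35), other noncoding hosts (0 and 1), snoRNP genes (0 and 3) and decay genes (1 and 5), as far more genes were then tested. The minimum of 5 FPKM gave 1243 for all genes in the YTHDF2 RIP, 0 in the direct contrast, 9 protein-coding hosts in the YTHDF1 RIP, and 0 other noncoding hosts, 0 snoRNP and 3 decay genes in the YTHDF2 RIP. The pseudocount of 0.1 gave 0 decay genes in the YTHDF1 RIP, 0 other noncoding hosts in the YTHDF2 RIP and 0 genes in the direct contrast. Scaling to the same total gave 0 for all genes, protein-coding hosts and decay genes in the YTHDF1 RIP, 0 other noncoding hosts and 1 snoRNP gene in the YTHDF2 RIP, and 0 in the direct contrast. Median-of-ratios scaling gave 634 genes, 9 protein-coding hosts, 3 snoRNP and 2 decay genes in the YTHDF1 RIP, 6 snoRNP genes and 3 of the 7 hosts in the YTHDF2 RIP, and 0 in the direct contrast. Scaling to nuclear coding genes gave 604 genes, 10 protein-coding hosts, 1 snoRNP and 3 decay genes in the YTHDF1 RIP, and 7 snoRNP genes and 2 of the 7 hosts in the YTHDF2 RIP. The cause of these shifts was not tested. Same-numbered replicates did not deviate together between input and either RIP (r = -0.14 for both) but did between the RIPs (r = 0.68), so the number was not taken as a pairing. With the replicate block the counts were 1432 and 3349 genes, with 2 in the direct contrast, 27 and 60 protein-coding hosts, 3 and 8 snoRNP genes and 5 decay genes in the YTHDF1 RIP, and 2 of the 7 hosts passed in the YTHDF2 RIP. Leaving out 1 library at a time gave 0 to 802 and 0 to 2141 genes, 0 to 1 in the direct contrast, 0 to 14 and 0 to 34 protein-coding hosts, 0 to 1 other noncoding host in the YTHDF2 RIP, 0 to 3 and 0 to 4 snoRNP genes, and 0 to 3 and 0 to 5 decay genes. Without input replicate 1 the counts over all genes were 8 and 9, without input replicate 2 they were 0 and 0, and without YTHDF1 RIP replicate 1 or 2 they were 1 or 0 in the YTHDF1 RIP.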

Other observations

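The proteins that assemble snoRNAs into particles had mRNAs with log2 changes mostly below 0 in the RIP libraries. Of 15 tested snoRNP genes, 2 fell and 1 rose in the YTHDF2 RIP against input, with 9 at an unadjusted p under 0.05, a median log2 change of -0.94 and 14 of 15 below 0. Over all tested genes 6.66% fell, 11.9% rose and 40.5% were below 0 in this contrast, with a median of 0.26. Of all 11057 tested genes, 4148 had an unadjusted p under 0.05. Dkc1, the pseudouridine synthase of H/ACA particles, fell by 1.75 on the log2 scale (limma, adjusted p = 0.0250), and Nop56, a core protein of C/D particles, by 1.25 (adjusted p = 0.0406). Both also carry snoRNAs in their introns, as does Nop58, so 3 of the 16 listed genes are protein-coding hosts as well. Nop56 had 6.75 and 8.18 FPKM in the input, 5.49 and 4.97 with anti-YTHDF1 and 2.18 and 2.95 with anti-YTHDF2. Shq1, a chaperone of Dkc1, rose with a log2 change of 1.37 (adjusted p = 0.0255), from 0.202 and 0.190 FPKM in the input to 1.81 and 2.38. Its mean over all libraries, 1.09 FPKM, passed the filter only through the YTHDF2 RIP, where it was high. No support is drawn from its call. In the YTHDF1 RIP against input limma called 0 of 15, with 5 at an unadjusted p under 0.05, and the median was -0.60. Over all tested genes the median was 0.05, and 2953 of 11057 had an unadjusted p under 0.05. Without input replicate 1 or input replicate 2, 0 of the 15 passed in either contrast.

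Genes of nonsense-mediated decay, the pathway known to degrade Gas5 RNA, had no common direction. Of 14 tested, 3 fell and 2 rose in the YTHDF2 RIP against input, with a median log2 change of 0.19, against the same shares and median over all tested genes. Magoh, a subunit of the exon junction complex, fell in both RIPs, by 2.93 on the log2 scale in the YTHDF1 RIP (limma, adjusted p = 0.0428) and by 2.99 in the YTHDF2 RIP (adjusted p = 0.0182). It went from 33.7 and 46.4 FPKM in the input to 6.33 and 2.88, and to 6.86 and 2.34. Upf3b, which links the junction complex to the decay factors, fell by 2.12 in the YTHDF2 RIP (adjusted p = 0.0217). Smg8, a regulator of the kinase that starts decay, rose with a log2 change of 1.75 (adjusted p = 0.0355). In the direct contrast limma called 0 of the 15 snoRNP genes, with 1 at an unadjusted p under 0.05, and 0 of the 14 decay genes, with 0 at an unadjusted p under 0.05. Of all 11057 tested genes, 477 had an unadjusted p under 0.05 there. Without input replicate 1 or input replicate 2, 0 of the 14 passed against input.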
